A study of Homo sapiens with 9 samples.

Results

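The replication-dependent histone genes are 71 protein-coding genes of 58096 gene IDs counted, chosen by a GENCODE 29 symbol that starts with HIST1H, HIST2H, HIST3H or HIST4H. By class they are 6 H1, 17 H2A, 18 H2B, 15 H3 and 15 H4 genes, and no measured value was used to choose them. Total RNA was taken from the ALL-SIL line, derived from T-cell acute lymphoblastic leukaemia (T-ALL), 24 h after electroporation with siRNA. The groups were TLX1 siRNA s46 (3 libraries), TLX1 siRNA s47 (3 libraries) and a scrambled, non-targeting siRNA (3 libraries), the last labelled with a dose of 400 nM. All 9 libraries came from the same line, no untransfected cells were among them, and TLX1 encodes a homeodomain protein that acts as an oncogene in part of T-ALL.

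DNA is wound around octamers of the core histones. H3 and H4 form a tetramer at the centre, pairs of H2A and H2B flank it, and H1 binds the linker DNA where it enters and leaves the nucleosome. The genes examined here supply these proteins while DNA is copied in S phase, so their RNA is abundant in dividing cells and is removed when replication stops. Most of their mRNAs carry no poly(A) tail and end instead in a stem-loop bound by the protein SLBP, and total RNA with ribosomal RNA removed keeps such transcripts.

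The stem-loop is shown here because it sets these transcripts apart from other mRNAs. A 16-base element (GG, 2 bases, CT, a loop of 4 bases, AG, 2 bases, CC, with all 6 bases of the stem paired) was searched on the gene's strand in annotated 3′ untranslated regions. It was present in 31 of the 36 members with an annotated region of at least 16 bases (86.1%), against 49 of 19036 other protein-coding genes (0.257%). It began 22 to 67 bases after the stop codon (median 35). Among matches the stem GGCTCT with AGAGCC stood in all 23 H2A, H2B and H3 genes, and GGCCCT with AGGGCC in all 8 H4 genes. The match counted for HIST1H2BN, at chr6:27865778-27865793 (plus), lies just past the annotated end of HIST1H2AL (chr6:27865355-27865747, plus). Its place among the H2B genes rests on the annotation of HIST1H2BN alone. Neither of the 2 H1 genes with such an annotated region matched, which says only that these letters were not in that window. In the sequences of abundant members, read from the GENCODE 29 transcripts (GRCh38), capitals mark the stem-loop.
HIST1H2AE: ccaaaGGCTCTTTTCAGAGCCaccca
HIST1H2BH: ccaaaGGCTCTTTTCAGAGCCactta
HIST1H2BD: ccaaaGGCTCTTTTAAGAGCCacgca
HIST1H3G: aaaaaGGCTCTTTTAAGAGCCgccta
HIST1H4E: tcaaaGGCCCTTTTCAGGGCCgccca
HIST1H4I: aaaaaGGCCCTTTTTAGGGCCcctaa
The 16 bases in capitals lie at chr6:26217417-26217432 (plus strand) for HIST1H2AE, chr6:26252055-26252070 (plus) for HIST1H2BH and chr6:26158587-26158602 (plus) for HIST1H2BD. They lie at chr6:26270923-26270938 (minus) for HIST1H3G, chr6:26205001-26205016 (plus) for HIST1H4E and chr6:27139654-27139669 (plus) for HIST1H4I. HIST1H2AE and HIST1H2BH share all 16 bases, whereas HIST1H2BD and HIST1H3G share a loop that differs from theirs.

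Sense gene reads numbered 21134650 to 33393740 per library. TLX1 was at 63.7, 87.3 and 78.7 CPM (sense counts scaled to a common library size, with TMM factors) with s46 and 63.5, 73.7 and 75.0 CPM with s47, against 198, 188 and 171 CPM with scrambled siRNA. All 6 TLX1 siRNA libraries lay below all 3 scrambled ones (log2 fold change −1.34 ± 0.11 SE, edgeR adjusted p = 0.000394). Of the T-lineage markers, CD3D averaged 354 CPM and LCK 303 CPM, CD2 was low at 3.39 CPM, and HBB, an erythroid marker, was close to 0 (0.0037 CPM), while NKG7, listed for NK cells, averaged 136 CPM. Scrambled replicate 1 stands apart: 14.4% of its reads mapped to several places, against 6.36% to 7.34% in the other 8 libraries, so the medians and most named genes of each histone class are given with and without it. In RNA from whole cultures, fewer cells in S phase and less histone RNA per cell cannot be told apart. The labels do not say that replicates were separate cultures; the p-values below therefore reflect only the spread among these libraries, part or all of which may be technical.

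The 71 genes together took 1.28% to 2.14% of sense gene reads. Their share was 1.61%, 1.28% and 1.63% with s46 and 2.14%, 1.37% and 2.00% with s47, against 1.67%, 1.41% and 1.78% with scrambled siRNA. The lowest share of every group was in its replicate 2, and s47 replicates 1 and 3 were the only libraries at 2.00% or more. Group means were 1.51% ± 0.197 with s46 and 1.84% ± 0.41 with s47, against 1.62% ± 0.19 with scrambled siRNA (SD, n = 3 each), and the 3 groups overlapped.

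Reads were concentrated in the large cluster on chromosome 6 and in few genes. The HIST1 cluster (GRCh38 chr6:25726132-27893843) holds 55 members and 92.9% of histone reads. The HIST2 cluster on chromosome 1 holds 12 members and 5.95%, HIST3 on chromosome 1 holds 3 members and 1.08%, and HIST4H4, alone on chromosome 12, took 0.0953%. The 10 members with most reads held 48.3% of histone reads. Per kilobase of coding sequence, HIST1H3B was the highest at 2560 CPM, followed by HIST1H1B at 2140 CPM, HIST1H1C at 2040 CPM and HIST1H4C at 1640 CPM. HIST1H2AG (1520 CPM per kilobase) led the H2A genes and HIST1H2BK (1490) the H2B genes. These values depend on the length used, since annotated exons can be longer than the coding sequence. Per kilobase of exons HIST1H2AG stood at 265 CPM, HIST1H2AE at 796 CPM, HIST1H2BK at 1490 CPM and HIST1H4C at 1180 CPM.

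Of the 71 members, 61 had enough reads to be tested, and 48 of them averaged 10 CPM or more (4 H1, 11 H2A, 15 H2B, 9 H3 and 9 H4 genes). In the 48 genes the smallest count in any library was 252 reads, in HIST4H4. Of the 10 members not tested, 6 were listed at 0 in all 9 libraries, a count that allows up to 0.0898 to 0.142 CPM depending on the library (3 reads, counting error only). These were HIST1H2AA, HIST1H2BA and HIST3H3, known as testis histone genes, and HIST1H3D, HIST1H4F and HIST2H3PS2. HIST1H1A (12 reads over the 9 libraries), HIST1H2AD (7), HIST1H2AM (60) and HIST1H4G (14) had few reads.

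Several of these zeros and low values coincide with shared annotation. All 411 bases of HIST1H3D and 385 of the 393 bases of HIST1H2AD lie within AL031777.3 on the same strand, which itself had 574 reads, and HIST1H2AM shares 346 bases with HIST1H3J (23791 reads). HIST2H3PS2 shares 409 of its 411 bases with AC239798.4 on the same strand, which had 0 reads. The authors' files keep ambiguous reads on a line of their own, so the level of these members cannot be read. A total of 4 pairs of genes have identical coding sequences: HIST1H4J and HIST1H4K, HIST2H2AA3 and HIST2H2AA4, HIST2H3A and HIST2H3C, and HIST2H4A and HIST2H4B. All 8 averaged under 10 CPM, at most 8.82 CPM in HIST1H4J, and since reads mapping to several places are listed apart from the genes, these values are uncertain. For 2 abundant members the nearest relative of equal length was less alike, with 87.3% identity to the coding sequence of HIST1H3B and 94.0% to that of HIST1H2BK. HIST2H3D, at 87.3 CPM, had 98.8% identity to HIST2H3PS2, so its value is uncertain too.

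No histone gene changed past the threshold after TLX1 knockdown. For the mean of both siRNAs against scrambled siRNA, 0 of 61 tested members passed an adjusted p of 0.05 by edgeR, against 0.566% of all 16072 genes tested. At an unadjusted p under 0.05 the count was also 0 of 61, against 2859 of all genes (10 of 62 without s47 replicate 2, against 2822 of 16424 genes), and DESeq2 and limma-voom called 0 members as well. With a block for the replicate number, 2 of 61 members had an unadjusted p under 0.05, against 3629 of 16072 genes, and 0 were called. In the main fit, which had no such block, the 95% interval of every one of the 61 log2 fold changes included 0. Over the 48 members of 10 CPM or more, the interval bounds ran from −0.64 to 0.88 on the log2 scale (HIST1H3J at the low end and HIST1H2BB at the high end). Other intervals were narrower, such as −0.10 to 0.34 in HIST1H2BN and −0.30 to 0.19 in HIST3H2A.

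The median log2 fold change of the 61 members was 0.12 for both siRNAs against scrambled siRNA, with 44 above and 17 below 0, beside −0.03 over all genes. The smallest adjusted p among members was 0.296, for HIST1H2BO. None of the 61 members had all 6 TLX1 siRNA libraries above all 3 scrambled ones (4.47% of all genes did) or all 6 below (3.65% did). Without scrambled replicate 1 the median was 0.09 and again no member was called.

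With s46 alone, 0 of 61 members were called, against 0.174% of all genes, and 0 members had an unadjusted p under 0.05, against 1905 of 16072 genes. With a block for the replicate number, 0 members and 74 genes (0.46%) were called, and 3 members had an unadjusted p under 0.05, against 2566 genes. The median log2 fold change of the members was −0.03 (all genes −0.02), with 26 above 0 and 35 below. This median was above 0 under 3 of 20 other settings and was −0.06 without scrambled replicate 1. With s47 alone, 0 of 61 members were called, against 0.33% of all genes, and 4 members had an unadjusted p under 0.05 (HIST1H2BO, HIST1H2BJ, HIST1H4L and HIST1H2BD), against 1978 of 16072 genes. That count turned on single libraries: it was 38 of 62 without s47 replicate 2 (1999 of 16424 genes) and 14 of 62 without scrambled replicate 3 (1939 of 16437 genes), but 0 of 62 without s47 replicate 1 and 1 of 61 without s47 replicate 3. The adjusted p called no member in any of these 4 fits. The median with s47 was 0.27 (all genes −0.03; 0.23 without scrambled replicate 1) and 55 of 61 members lay above 0. In all, 2 members, HIST2H4A and HIST1H4J, had all 3 s47 libraries above all 3 scrambled ones, as 7.25% of all genes did, and both belong to pairs of identical copies. Both comparisons share the 3 scrambled libraries.

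For s46 against s47, 0 of 61 members and 0% of all genes were called. Of the members, 60 of 61 lay below 0, that is lower with s46, with a median log2 difference of −0.31 beside 0.00 over all genes. HIST1H2BO, HIST3H2A and HIST1H4J had an unadjusted p under 0.05, against 113 of 16072 genes, and the smallest adjusted p was 1. Within each replicate number the histone share was lower with s46 than with s47, at 1.61% against 2.14% in replicates 1, 1.28% against 1.37% in replicates 2 and 1.63% against 2.00% in replicates 3. With a block for the replicate number, 27 of 61 members had an unadjusted p under 0.05, against 228 of 16072 genes, with 0 called and a median of −0.30. Without s47 replicate 2 and with no block, 47 of 62 members had an unadjusted p under 0.05, against 200 of 16424 genes. Without s46 replicate 1 or 2, or s47 replicate 1 or 3, no member did. None of these fits called a member after adjustment. Leaving out each library in turn moved this median between −0.48 and −0.17.

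**Figure D1:**
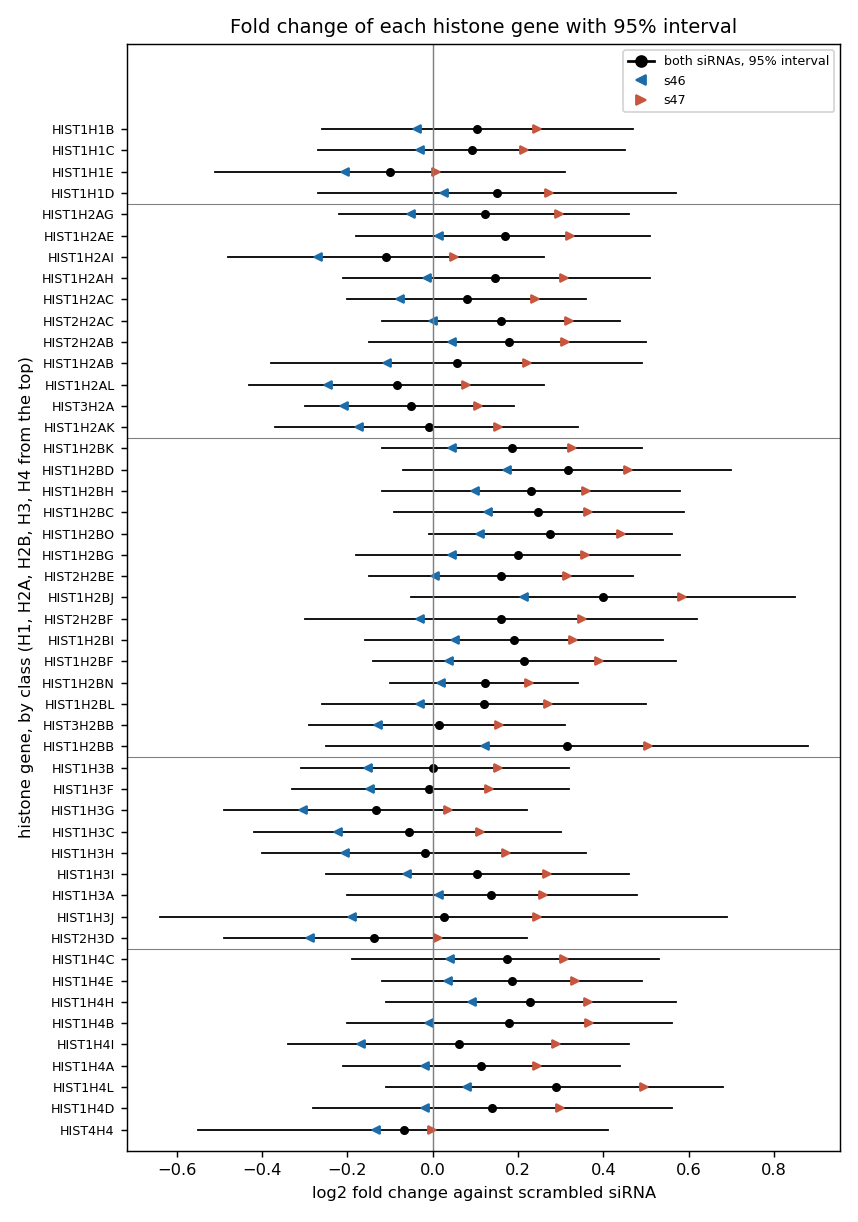
Log2 fold change against scrambled siRNA (x axis) of the 48 histone genes of mean CPM 10 or more (rows, by class). Triangles give s46 and s47 alone, black points with bars give the mean of both siRNAs with its 95% interval from edgeR. Every bar crosses 0, and s47 stands to the right of s46 in all 48 genes.

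Across the 48 genes of 10 CPM or more, libraries of the same group differed. The log2 difference of s46 against s47 had a median of −0.311 over these genes, with all 48 below 0. The highest of the 9 libraries was s47 replicate 1 for 34 genes (70.8%, against 9.48% of all genes) and s47 replicate 3 for 12 genes. Replicate 2 was the lowest of its group for 46 genes with s46 and 47 genes with s47, and for 31 genes with scrambled siRNA, where replicate 1 was the lowest for 17. Over all genes, replicate 2 was the lowest for 34.5% with s46, 32.8% with s47 and 36.3% with scrambled siRNA. Scrambled replicate 1 was the lowest of its group for 41.1% of all genes. The within-group SD of log2 CPM had a median of 0.292 over the 48 histone genes, beside 0.18 over 8939 genes of the same minimum level, so the histone genes varied more between replicates than most genes of at least that level.

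**Figure D2:**
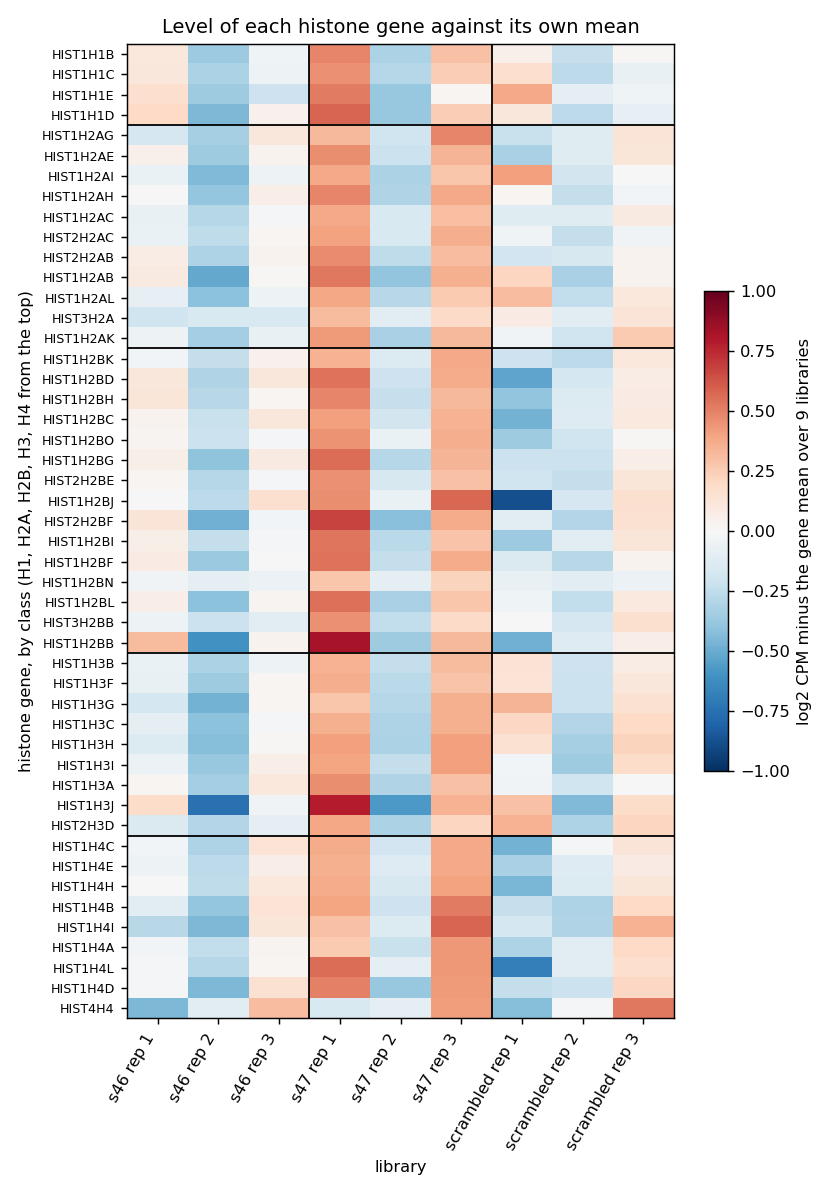
Log2 CPM of each of the 48 histone genes minus its mean over 9 libraries (colour), by library (columns) and gene (rows, grouped by class). The column of s47 replicate 1 is above the mean for nearly all genes, and replicate 2 of s46 and s47 lies below it. Scrambled replicate 1 is below both other scrambled libraries for 7 H2B and 7 H4 genes and for no H1 or H3 gene. Over all genes it was the lowest of its group for 41.1%.

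The linker histone genes are considered first. H1 genes summed to 4677, 3311 and 4091 CPM with s46 and 6026, 3391 and 4954 CPM with s47, against 4770, 3668 and 4141 CPM with scrambled siRNA. The lowest library of each group was replicate 2 and the groups overlapped. Means were 4026 ± 685 and 4790 ± 1330 CPM with s46 and s47, against 4193 ± 553 CPM with scrambled siRNA (SD, n = 3 each).

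HIST1H1B, the linker histone gene with most reads, was at 1540, 1110 and 1390 CPM with s46 and 2010, 1150 and 1750 CPM with s47, against 1480, 1220 and 1440 CPM with scrambled siRNA. The 3 scrambled values lay inside the range of the 6 siRNA values. Its log2 fold change for both siRNAs was 0.10 ± 0.17 (SE), with a 95% interval of −0.26 to 0.47 and an adjusted p of 0.768. HIST1H1C had 0.09 ± 0.17 and HIST1H1D 0.15 ± 0.20, the highest value of the class. HIST1H1E, whose region has reads on both strands (7.08% on the opposite strand, against a median of 0.199% over the 48 genes), had −0.10 ± 0.19. Those 4 genes made up nearly all H1 reads. HIST1H1B took 31.1% to 35.2%, HIST1H1C 29.4% to 31.4% and HIST1H1D 15.6% to 17.7% of H1 reads in every library. HIST1H1E ranged more widely, from 17.1% in s47 replicate 3 to 22.6% in scrambled replicate 1. HIST1H1T, a testis linker histone gene, averaged 0.958 CPM and had the lowest log2 fold change of the class, −0.19 ± 0.33. Without scrambled replicate 1 the values were 0.16 in HIST1H1B, 0.21 in HIST1H1C, 0.25 in HIST1H1D, 0.06 in HIST1H1E and −0.20 in HIST1H1T.

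Among H2A genes, which encode the partner of H2B, sums were 2493, 2024 and 2632 CPM with s46 and 3423, 2197 and 3314 CPM with s47, against 2534, 2296 and 2705 CPM with scrambled siRNA. Only s47 replicates 1 and 3 exceeded all scrambled libraries. Of the 14 tested H2A genes, 7 lay above and 7 below 0 for both siRNAs, and their median log2 fold change was 0.02, whose sign changed under 7 of 20 other settings.

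HIST1H2AG had 521, 465 and 634 CPM with s46 and 733, 511 and 820 CPM with s47, against 502, 538 and 640 CPM with scrambled siRNA. The s46 and scrambled values interleaved, and s47 replicates 1 and 3 were above every other library (log2 fold change of both siRNAs 0.12 ± 0.16 SE, adjusted p = 0.697). HIST1H2AE had 0.17 ± 0.16, HIST1H2AH 0.15 ± 0.17 and HIST1H2AI −0.11 ± 0.17. HIST1H2AI reached 454 CPM in scrambled replicate 1, against 301 and 341 CPM in scrambled replicates 2 and 3, and its log2 fold change was 0.08 without that library. The highest value of the class was 0.18 ± 0.15 in HIST2H2AB and the lowest −0.41 ± 0.49 in HIST1H2AJ, which averaged 0.36 CPM. Without scrambled replicate 1, HIST1H2AG was at 0.05, HIST1H2AE at 0.07, HIST1H2AH at 0.20, HIST2H2AB at 0.14 and HIST1H2AJ at −0.07. Over the 11 H2A genes of 10 CPM or more, levels per kilobase of coding sequence spanned 100 CPM in HIST1H2AK to 1520 CPM in HIST1H2AG.

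H2B was the only class whose tested genes all lay on the same side of 0. Its sums were 4491, 3561 and 4451 CPM with s46 and 6056, 3775 and 5518 CPM with s47, against 3497, 3796 and 4597 CPM with scrambled siRNA. The lowest scrambled value was in replicate 1, all 3 s46 libraries and s47 replicate 2 lay within the scrambled range, and s47 replicates 1 and 3 above it. All 17 tested H2B genes had a log2 fold change above 0 for both siRNAs (median 0.20), with 0 called, and the median was 0.14 without scrambled replicate 1.

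HIST1H2BK, the most abundant, was at 549, 476 and 578 CPM with s46 and 713, 509 and 730 CPM with s47, against 485, 467 and 604 CPM with scrambled siRNA. Its s46 values lay within the scrambled range, and s47 exceeded it in replicates 1 and 3 (0.19 ± 0.14 SE for both siRNAs, adjusted p = 0.488). HIST1H2BD had 534, 400 and 534 CPM with s46 and 719, 428 and 639 CPM with s47, against 343, 438 and 520 CPM with scrambled siRNA. Both replicates 2 of the TLX1 siRNAs fell inside the scrambled range, and the log2 fold change was 0.32 ± 0.18 (SE, adjusted p = 0.356). HIST1H2BH had 0.23 ± 0.16 and HIST1H2BC 0.25 ± 0.16. Without scrambled replicate 1 the log2 fold changes were 0.14 in HIST1H2BK, 0.17 in HIST1H2BD, 0.12 in HIST1H2BH and 0.11 in HIST1H2BC.

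The H2B gene with the highest log2 fold change was HIST1H2BJ. It was at 251, 209 and 280 CPM with s46 and 346, 239 and 372 CPM with s47, against 136, 223 and 279 CPM with scrambled siRNA. Scrambled replicate 1 was the lowest of all 9 libraries, and the other 2 scrambled values lay among those of s46. The log2 fold change for both siRNAs was 0.40 ± 0.21 (SE), with a 95% interval of −0.05 to 0.85 and an adjusted p of 0.326. Without scrambled replicate 1 it was 0.16. HIST1H2BO, with the smallest adjusted p of the members, had 306, 259 and 296 CPM with s46 and 409, 287 and 387 CPM with s47, against 234, 262 and 302 CPM with scrambled siRNA; it was chosen for naming after its values were seen. Its log2 fold change was 0.28 ± 0.13 (SE, 95% interval −0.01 to 0.56). HIST3H2BB, outside the main cluster, was lowest in the class at 0.01 ± 0.14, and also at 0.01 without scrambled replicate 1.

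H2A and H2B genes often lie head to head and share the stretch between their starts. In 11 such pairs the starts were 218 to 330 bases apart, and in 7 of them both genes exceeded 10 CPM. Per kilobase of coding sequence, HIST1H2AG stood at 1520 CPM and its partner HIST1H2BJ at 681 CPM. HIST1H2AH stood at 786 CPM and its partner HIST1H2BK at 1490 CPM. Per kilobase of annotated exons HIST1H2AG and HIST1H2BJ were close, at 265 and 273 CPM. HIST1H2AH and HIST1H2BK were still unequal, at 786 and 1490 CPM. In the pair of HIST1H2AJ and HIST1H2BM both were near 0, at 0.93 and 0.888 CPM per kilobase. HIST1H2AA and HIST1H2BA were both listed at 0.

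The octamer ATTTGCAT, the binding site of POU2F1, is a known element of H2B promoters. In windows of 250 bases before to 50 after the RefSeq gene start (GRCh38.p14; 61 of 71 members matched), it occurred on either strand in 14 of 18 H2B, 11 of 14 H2A and 1 of 10 H3 promoters, and in 0 of 6 H1 and 0 of 13 H4 promoters. Its share over the 61 members was 42.6%, beside 1.8% of all 27305 promoters in the table. The windows of head-to-head H2A and H2B genes can overlap, so the same match can count for both genes of a pair. The sequences of abundant H2B genes are shown on the gene's strand with the octamer in capitals.
HIST1H2BK: tcttcaccttATTTGCATgagaggtcct
HIST1H2BH: ttaagcacctATTTGCATaaaagaccta
HIST1H2BC: ttcatacctcATTTGCATagctctgccc
HIST1H2BJ: tcttcaccttATTTGCATaagcgattct
These windows lie at chr6:27146887-27146914 (minus), chr6:26251555-26251582 (plus), chr6:26124032-26124059 (minus) and chr6:27132825-27132852 (minus). HIST1H2BK and HIST1H2BJ also share the 10 bases before the octamer. Matches did not follow the head-to-head pairs gene by gene. HIST1H2BH, in no such pair, had a match, whereas HIST1H2BL, paired with HIST1H2AI, had none. Genes with and without these letters stood at both high and low levels. HIST1H2BD, at 1330 CPM per kilobase of coding sequence and 581 CPM per kilobase of exons, had no match in its window. HIST1H2BM and HIST1H2BE, at 0.888 and 10.7 CPM per kilobase of coding sequence, had a match. The sequence CCAAT, on either strand, was in all matched H1, H2A, H2B and H3 promoters but in 3 of 13 H4 promoters (83.6% of members, 35.7% of all promoters). TATAAA, on the gene's strand, was in 57.4% of members and 7.71% of all promoters. No matches of these 3 motifs overlapped in the members.

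H3 genes, whose products carry many of the known histone marks, summed to 2764, 2251 and 2905 CPM with s46 and 3783, 2413 and 3683 CPM with s47, against 3285, 2462 and 3202 CPM with scrambled siRNA. In this class the s46 libraries all lay below scrambled replicates 1 and 3. The median log2 fold change of the 12 tested genes for both siRNAs was 0.00 (−0.004), with 6 on each side of 0 and a sign that changed under 8 of 20 other settings.

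HIST1H3B, the highest member per kilobase, was at 990, 834 and 1000 CPM with s46 and 1320, 882 and 1290 CPM with s47, against 1150, 899 and 1090 CPM with scrambled siRNA. The siRNA values surrounded the scrambled ones, with a log2 fold change of 0.00 ± 0.15 (SE) and a 95% interval of −0.31 to 0.32. HIST1H3F had −0.01 ± 0.15, HIST1H3C −0.06 ± 0.17 and HIST1H3G −0.13 ± 0.17. The lowest of the class was HIST2H3D at −0.14 ± 0.16, and the highest HIST1H3E at 0.17 ± 0.25, a gene of 6.58 CPM. With scrambled replicate 1 left out, HIST1H3E was at −0.14, HIST1H3B at 0.07, HIST1H3F at 0.05, HIST1H3C at 0.02, and HIST1H3G and HIST2H3D at 0.00. HIST1H3B alone took 34.1% to 37.1% of H3 reads in every library.

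H4 genes summed to 2108, 1767 and 2360 CPM with s46 and 2852, 1944 and 2960 CPM with s47, against 1705, 1995 and 2462 CPM with scrambled siRNA. As for H2B, the lowest scrambled library was replicate 1. Of 13 tested H4 genes, 11 lay above 0 for both siRNAs, and their median log2 fold change was 0.17, which became 0.09 without scrambled replicate 1.

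HIST1H4C was at 493, 406 and 553 CPM with s46 and 651, 441 and 654 CPM with s47, against 362, 498 and 551 CPM with scrambled siRNA. The s46 values were within or just above the scrambled range and s47 replicates 1 and 3 exceeded it (0.17 ± 0.17 SE, adjusted p = 0.586). HIST1H4E had 0.19 ± 0.14, HIST1H4H 0.23 ± 0.16 and HIST1H4B 0.18 ± 0.18. HIST1H4L, the highest of the class at 0.29 ± 0.18, had 139, 115 and 142 CPM with s46 and 207, 132 and 190 CPM with s47, against 87.3, 130 and 158 CPM with scrambled siRNA. Its scrambled range covered all 3 s46 values and s47 replicate 2. The lowest was HIST2H4B at −0.19 ± 0.41, a gene of 0.564 CPM with an identical copy. In the fit that left out scrambled replicate 1, HIST1H4C was at 0.02, HIST1H4E, HIST1H4H and HIST1H4L at 0.09, HIST1H4B at 0.12 and HIST2H4B at −0.18.

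**Figure D3:**
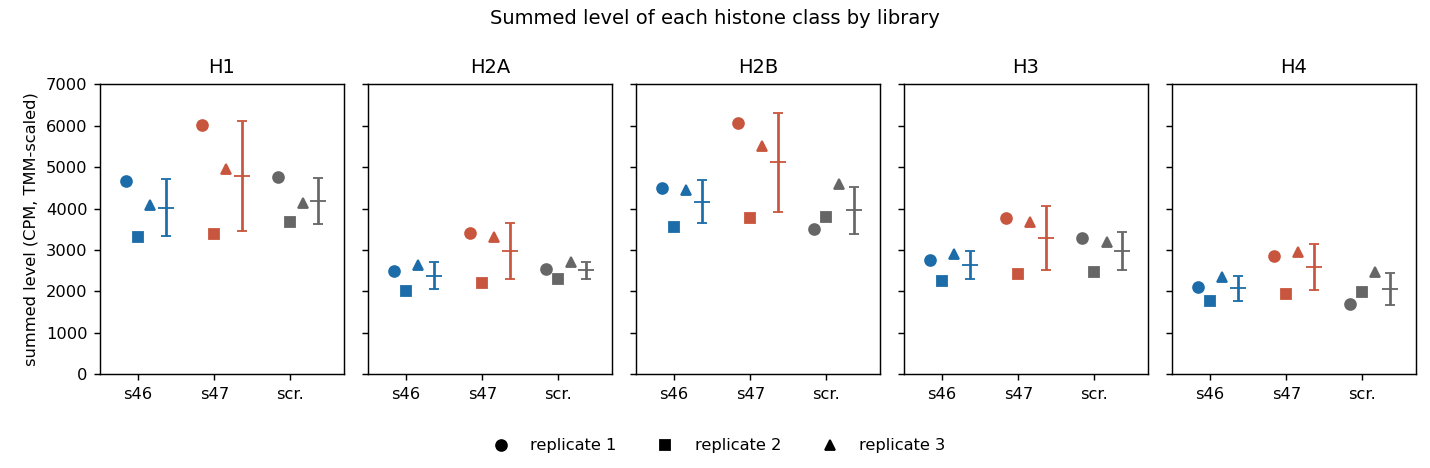
Summed CPM (y axis) of each histone class in the 9 libraries, by siRNA group (scr. = scrambled). Points are libraries, with the replicate number as the shape, and bars are the group mean and SD of 3 libraries. s47 replicates 1 and 3 are the highest points in every class, and replicate 2 is the lowest point of s46 and s47 in every class.

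The balance between classes was steadier than their level, apart from 1 library. In the 8 libraries other than scrambled replicate 1, H2B took 26.7% to 27.6% of histone reads, H3 16.7% to 18.7%, H4 12.8% to 14.5% and H1 24.2% to 28.3%. In scrambled replicate 1, H2B took 22.1%, H4 10.8%, H3 20.8% and H1 30.2%, each outside the range of the others, while H2A at 16% was inside its range of 15.1% to 16.2%. The ratio of H2B to H3 reads was 1.06 in that library, against 1.44 to 1.63 in the other 8.

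The same split appeared gene by gene. Compared with both other scrambled libraries, scrambled replicate 1 was higher for 4 of 4 H1 and 6 of 9 H3 genes of 10 CPM or more and lower for none of them. It was lower for 7 of 15 H2B and 7 of 9 H4 genes and higher for none of them. H2A was mixed, with 3 of 11 lower and 4 higher. Over all genes tested, this library was the lowest of its group for 41.1% and the highest for 41.8%. The H2B count was near that share. The median ratio of this library to the mean of the other 2 was 1.24 for H1, 1.16 for H3, 1.04 for H2A, 0.899 for H2B and 0.778 for H4. Without it, the class medians of the log2 fold change for both siRNAs were 0.16 for H1, 0.05 for H2A, 0.14 for H2B, 0.06 for H3 and 0.09 for H4. With it they were 0.09 for H1, 0.02 for H2A, 0.20 for H2B, 0.00 for H3 and 0.17 for H4. The part of its larger share of reads mapping to several places in these values was not tested.

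**Figure D4:**
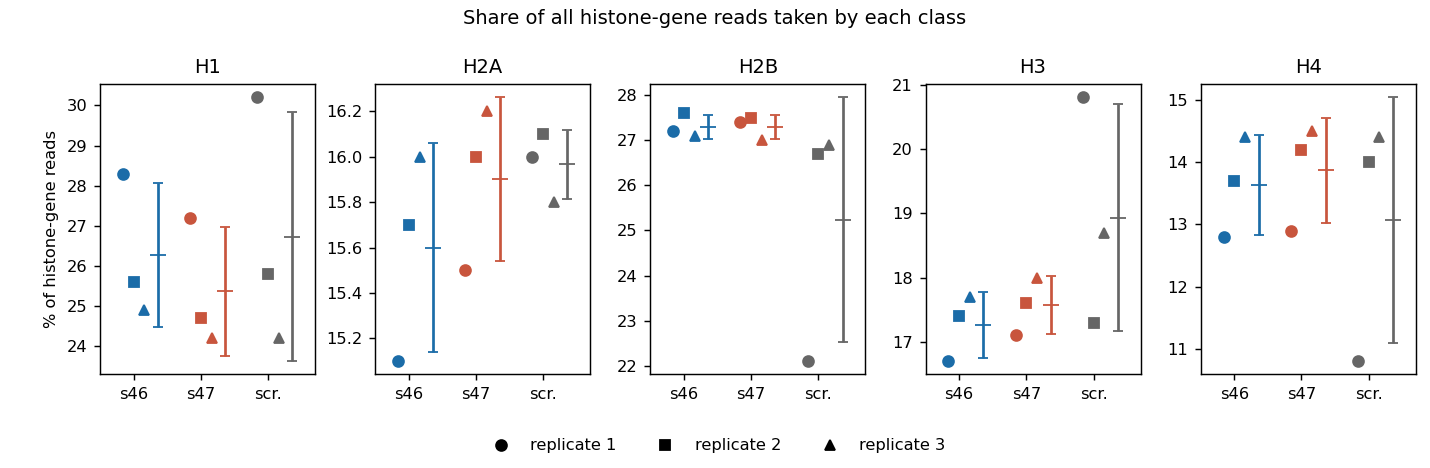
Share of histone-gene reads (y axis, %; each panel has its own range, which does not start at 0) taken by each class in the 9 libraries, by siRNA group. Points are libraries and bars the group mean and SD of 3 libraries. Scrambled replicate 1 (grey circle) is the outermost point in H1, H2B, H3 and H4, at 30.2%, 22.1%, 20.8% and 10.8%.

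Genes that make, process or use histone mRNA were then set beside the members. SLBP, which binds the stem-loop and is needed for processing and translation, was at 240, 194 and 231 CPM with s46 and 272, 192 and 245 CPM with s47, against 178, 199 and 190 CPM with scrambled siRNA. Replicate 2 of each TLX1 siRNA lay within the scrambled range and the other 4 siRNA libraries above it (0.27 ± 0.12 SE, adjusted p = 0.274). NPAT, the coactivator of histone gene transcription downstream of cyclin E and CDK2, averaged 195 ± 23.2 CPM with both siRNAs (SD, n = 6) and 185 ± 1.82 CPM with scrambled siRNA (SD, n = 3), a log2 fold change of 0.08 ± 0.11 (SE). Of the 32 genes listed for histone mRNA processing and decay, 0 were called and the median log2 fold change was 0.07. SMG1, a kinase of nonsense-mediated decay, had −0.20 ± 0.16, and CASP8AP2, a component of histone locus bodies, 0.21 ± 0.13. Leaving out scrambled replicate 1 gave 0.03 in SMG1, 0.16 in CASP8AP2, 0.23 in SLBP and 0.07 in NPAT.

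The 30 listed DNA replication genes summed to 8831, 6697 and 8286 CPM with s46 and 9363, 6667 and 8741 CPM with s47, against 8181, 6662 and 7646 CPM with scrambled siRNA. Replicate 2 was the lowest of each group, as for the histone sum. None of the 30 were called and 25 lay above 0 for both siRNAs (median 0.14, all genes −0.03). MCM4 and MCM3, subunits of the replicative helicase, had 0.17 ± 0.15 and 0.13 ± 0.13. Of 11 tested kinases, cyclins and regulators of S phase entry, 0 were called (median 0.01). CCNA2, the S-phase partner of CDK2, had 0.17 ± 0.18 and CDK1 0.16 ± 0.15. Both signs depended on scrambled replicate 1: when it was left out, CCNA2 was at −0.04 and CDK1 at −0.03. MCM4 and MCM3 were then at 0.21 and 0.16. For the processing genes, replicate 2 was not the lowest with s47 or with scrambled siRNA.

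Among 19 histone chaperones, 1 was called, against 0.566% of all genes. SUPT16H, a subunit of the FACT complex that handles H2A and H2B, was higher with the TLX1 siRNAs. It was at 617, 538 and 544 CPM with s46 and 625, 526 and 577 CPM with s47, against 351, 412 and 381 CPM with scrambled siRNA. All 6 siRNA libraries lay above all 3 scrambled ones, as for 4.47% of all genes. The log2 fold change was 0.58 ± 0.11 (SE, edgeR adjusted p = 0.0317), and 0.53 with scrambled replicate 1 left out. The call was lost, with the direction kept, on leaving out s46 replicate 1, 2 or 3, s47 replicate 1, 2 or 3, or scrambled replicate 3 (adjusted p 0.0507 to 0.133). The chaperone median was 0.12.

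The replication-independent variants, most of which are made from polyadenylated mRNA and not only in S phase, gave 0 calls among 10 tested of 17 listed (median 0.12). H3F3B averaged 1030 ± 87.2 CPM with both siRNAs (SD, n = 6) and 977 ± 209 CPM with scrambled siRNA (SD, n = 3), a log2 fold change of 0.08 ± 0.14 (SE). H2AFZ had 0.18 ± 0.12 and H3F3A 0.15 ± 0.11. Leaving out scrambled replicate 1 gave −0.04 in H3F3B, 0.08 in H2AFZ and 0.07 in H3F3A. Summed over the 17 genes, replicate 2 was the highest library with s46 and with scrambled siRNA, at 3309 and 3389 CPM, and the lowest with s47, at 3084 CPM, unlike the replication-dependent genes.

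**Figure D5:**
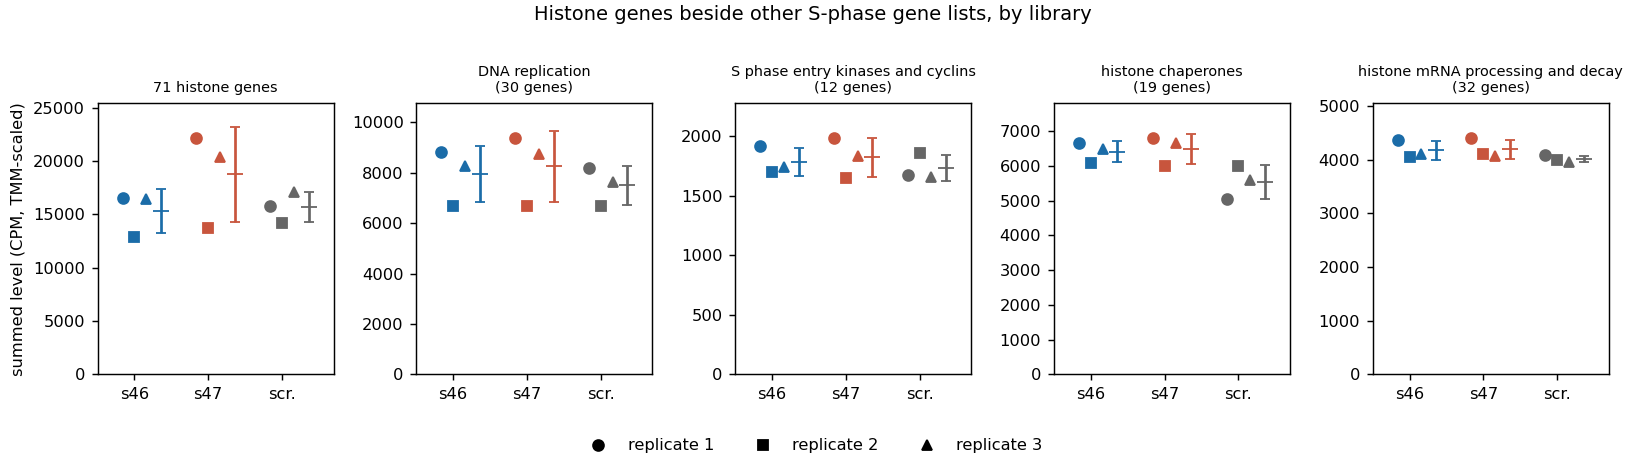
Summed CPM (y axis, from 0) of the 71 histone genes and of 4 other gene lists in the 9 libraries, by siRNA group; bars give the mean and SD of 3 libraries. Replicate 2 (square) is the lowest point of each group for histone and DNA replication genes.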

How the data were processed

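For each of the 9 libraries the authors deposited gene-level raw counts for unstranded, sense and opposite-strand reads, on GRCh38 per the submitters' processing notes. Which aligner, counting tool and annotation they used is not given in the sources used here. Libraries were stranded and depleted of ribosomal RNA, per the labels' protocols. The sense counts were used. The first 4 lines, which name no gene, entered neither library sizes nor tests; they held 6.36% to 14.4% (multimapping), 4.52% to 6.7% (unmapped), 23.8% to 36.8% (outside genes) and 2.12% to 4.44% (ambiguous) of all reads. Symbols, coordinates and 3′ UTRs came from GENCODE 29 (57492 of 58096 IDs matched, 604 did not), and promoters from RefSeq (GRCh38.p14).

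Genes were kept by filterByExpr with a minimum count of 10 (16072 genes), given TMM factors and tested by the robust quasi-likelihood test of edgeR 4.0.16 in R 4.3.3 (1 fit of all 9 libraries, group as the only term). The Benjamini-Hochberg adjustment ran over the whole table, and genes under an adjusted p of 0.05 were called. The siRNAs were set against scrambled siRNA as the mean of both and singly, and s46 was set against s47. Class sums include members that were not tested and carry no test. Intervals are 95% and, like the limit for a count of 0, cover no bias in mapping.

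Members and gene lists were chosen with earlier results of these data known. The named genes are, in each class, the 4 with the highest mean CPM and those with the highest and the lowest log2 fold change of both siRNAs, any gene called in the lists (otherwise the 2 most abundant), and TLX1, SLBP, NPAT, H2AFZ, H3F3A and H3F3B; other members are named as examples, chosen after their values were seen. Other settings were a block for the replicate number, 3 other scalings, limma-voom (limma 3.58.1), DESeq2 1.42.0, unstranded counts, 2 other filters, fits restricted to the groups in question and fits that left out libraries. Whether replicate numbers pair libraries was read from the data, since the labels do not say: the deviations from the group means of same-numbered libraries correlated at 0.348 to 0.436 between s46 and s47 and at 0.199 to 0.314 between s46 and scrambled siRNA, where every pair exceeded 0.1, but at −0.03 to 0.298 between s47 and scrambled siRNA. Differently numbered libraries correlated at −0.314 to 0.17, the highest being s47 replicate 3 with scrambled replicate 2. The first and the second of these comparisons were therefore taken as paired. The main fit nevertheless had no block for the replicate number, so its p-values, SEs and intervals ignore that pairing. Counts from the fit with the block are given beside them. If both are paired, s47 and scrambled siRNA are paired as well. That comparison fell short of 0.1 only in replicates 2 (−0.03, against 0.203 in replicates 1 and 0.298 in replicates 3). Its pairing is therefore not settled. No pair of deposited files was identical.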

Additional observations from a re-analysis of the deposited data

How the results depend on the processing

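No histone gene was called for both siRNAs, for s46 alone or for s46 against s47 under any of the 20 other settings run. For s47 against scrambled siRNA, 2 of 65 members (HIST1H2BJ and HIST1H4L, both higher) were called when no filter on low counts was used, where 432 of 31261 genes (1.38%) were called in all; under the other settings the count was 0. Counts over all genes moved more: 91 genes were called for both siRNAs, against 458 by DESeq2, 876 with no filter, 1650 without scrambled replicate 2 and 22 without scrambled replicate 3, where leaving out a library also changes the genes tested. DESeq2 called 196 genes for s46 and 203 for s47, against 28 and 53 by edgeR. Leaving out 1 library each time, the median log2 fold change of the histone genes for both siRNAs ran from 0.06 to 0.22, and other settings gave −0.01 to 0.16. For both siRNAs the sign of the class medians of H2A and H3 changed under 7 and 8 settings, whereas those of H1, H2B and H4 stayed above 0 under all 20. SUPT16H lost its call with unstranded counts (adjusted p = 0.0512) and without the 3 libraries of replicate number 1 (0.0997). CCNA2 (adjusted p = 0.0398) and CDK1 (0.0488) were called without scrambled replicate 2. With the replicate block, 0 histone genes were called in any of the 4 comparisons. Of all genes it called 222 for both siRNAs, 74 for s46, 125 for s47 and 0 for s46 against s47. For s47 alone, 16 of 61 histone genes had an unadjusted p under 0.05 with the block, against 2637 of 16072 genes. For both siRNAs the count was 2 of 61, against 3629 of 16072 genes. Whether the replicate numbers pair s47 with scrambled siRNA was not settled by the data. Identical copies, overlapping annotation and few reads limit the values of the members under 10 CPM. HIST2H3D, above that level, has a nearly identical relative.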
